A study of Homo sapiens with 9 samples.

Results

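Cells recognise DNA and RNA that lie in the cytosol through a small set of sensor proteins and their adaptors, and 10 genes of this system were examined here: IFIH1, RIGI (listed as DDX58), DHX58, MAVS, CGAS, STING1, IFI16, AIM2, ZBP1 and TREX1. They were chosen by name, as known sensors, adaptors and 1 nuclease, and a gene counted as measured where a probe set of the array was assigned to that gene alone. By this rule 9 of the 10 genes were measured, among 18417 genes in all, and each of the 9 had a single probe set. The only probe set of TREX1, the exonuclease that degrades cytosolic DNA, was also assigned to ATRIP and gave no value here.

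The cells were IMR90 human lung fibroblasts (spelled IRM90 in the labels) that carry ER:RAS, an oncogenic RAS kept inactive by a fused oestrogen receptor domain until 4-hydroxytamoxifen (4OHT) is added. The 9 arrays fell into 3 groups of 3. The shARID1B+4OHT group held a short hairpin RNA against ARID1B, a DNA-binding subunit of SWI/SNF chromatin remodelling complexes, and received 4OHT at 100 nM. The vector+4OHT group held the vector and received the same 4OHT, and the vector-4OHT group held the vector and received none. All 3 groups carried ER:RAS, were grown for 7 days and were labelled as day 6 after 4OHT. No cells without ER:RAS received 4OHT, so an effect of 4OHT itself and of RAS cannot be told apart. No group held a control hairpin, so an effect of losing ARID1B and of carrying a hairpin cannot be told apart. No group held the hairpin without 4OHT, so whether a hairpin effect depends on 4OHT cannot be told. The labels do not give the number of hairpins or say that replicates were separate cultures. The study describes its array replicates as biological, and p-values measure the spread between these 3 samples per group.

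The values were log2 expression values of Affymetrix whole-transcript arrays, on which a difference of 1 is a 2-fold difference. Levels of different genes cannot be compared, because each probe set has its own response. The median of all probe sets was 6.75, and a gene below it was taken as not shown to be above background. ARID1B had 8.07, 7.96 and 8.13 in shARID1B+4OHT cells, against 8.63, 8.96 and 8.77 in vector+4OHT cells and 8.93, 8.85 and 8.94 in vector-4OHT cells. Its level fell to 0.601-fold of vector+4OHT cells (95% confidence interval 0.531 to 0.680, adjusted p = 0.000179), with no overlap between these groups. All 10 fibroblast markers tested lay above the median in every group, and PTPRC, the CD45 gene that defines leukocytes, averaged 3.94, 3.96 and 4.04 in shARID1B+4OHT, vector+4OHT and vector-4OHT cells. Of 9 leukocyte markers, 7 lay below the median in each group, and only 1 was called. Of all genes, 9.63% were called higher in shARID1B+4OHT relative to vector+4OHT cells, and 14.9% in vector+4OHT relative to vector-4OHT cells. The called marker was CD68, a macrophage marker that fibroblasts also express. It averaged 11.49, 11.14 and 10.85 in shARID1B+4OHT, vector+4OHT and vector-4OHT cells. Its limma adjusted p was 0.00511 between shARID1B+4OHT and vector+4OHT cells and 0.00558 between vector+4OHT and vector-4OHT cells. Its part in the sensor values was not tested. The mean level of the 9 on single arrays ranged from 6.43 to 6.47 in shARID1B+4OHT cells, from 6.40 to 6.51 in vector+4OHT cells and from 6.42 to 6.50 in vector-4OHT cells. The RNA came from bulk cultures, in which fewer cells of a type and less RNA per cell cannot be told apart.

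Cytosolic double-stranded DNA is bound by cGAS, the product of CGAS, which makes the cyclic dinucleotide cGAMP. cGAMP binds STING at the endoplasmic reticulum, and STING recruits the kinase TBK1, which activates the transcription factor IRF3 and with it type I interferon. Viral or misplaced double-stranded RNA is bound by RIG-I (RIGI) and MDA5 (IFIH1), which signal through MAVS on mitochondria to the same kinase, while LGP2 (DHX58) tunes them. IFI16 and AIM2 are DNA-binding proteins of the PYHIN family, of which AIM2 assembles an inflammasome with the adaptor ASC and caspase-1. ZBP1 binds Z-form nucleic acids and engages the kinase RIPK3, which phosphorylates MLKL in necroptosis. In senescent fibroblasts, cGAS-STING signalling is known to take part in the secretion of inflammatory factors.

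Many sensor genes are themselves interferon targets, and their promoters were read for that reason. RefSeq sequences (GRCh38.p14) from 250 bases before to 50 bases after the start were held for 5 of the 9 measured sensors: IFIH1, RIGI, MAVS, IFI16 and AIM2. They were searched on both strands for GAAANNGAA, the core of the interferon-stimulated response element, and for TTCNNNGAA, the core of the gamma-activated sequence. The first motif was found in the promoters of 3 of these 5 genes, IFIH1, IFI16 and AIM2, and in 8.11% of the 35116 promoters in the table. A gene counted if any of its start sites matched, whereas the share of all promoters counts each sequence, so the units differ. TTCNNNGAA was found in none of the 5 and in 7.66% of all promoters. The promoters of IFIH1, with the most matches, of AIM2, with a single match, and of RIGI, with none, are printed 5′ to 3′ to set side by side genes whose levels are described further on; capitals mark GAAANNGAA on either strand.
IFIH1 (chr2:162318635-162318934, minus strand): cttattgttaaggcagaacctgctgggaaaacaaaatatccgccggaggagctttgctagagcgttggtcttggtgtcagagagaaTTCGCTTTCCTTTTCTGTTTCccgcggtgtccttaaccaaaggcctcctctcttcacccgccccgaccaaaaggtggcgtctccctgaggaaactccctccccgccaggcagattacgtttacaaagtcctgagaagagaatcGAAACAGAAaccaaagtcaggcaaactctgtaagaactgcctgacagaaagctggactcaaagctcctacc
AIM2 (chr1:159076717-159077016, minus strand): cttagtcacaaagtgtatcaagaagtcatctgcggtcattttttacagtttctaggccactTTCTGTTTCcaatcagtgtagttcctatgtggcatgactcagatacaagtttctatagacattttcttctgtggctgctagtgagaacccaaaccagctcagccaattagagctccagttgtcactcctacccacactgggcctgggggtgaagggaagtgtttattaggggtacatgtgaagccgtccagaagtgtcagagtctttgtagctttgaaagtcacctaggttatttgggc
RIGI (chr9:32526147-32526446, minus strand): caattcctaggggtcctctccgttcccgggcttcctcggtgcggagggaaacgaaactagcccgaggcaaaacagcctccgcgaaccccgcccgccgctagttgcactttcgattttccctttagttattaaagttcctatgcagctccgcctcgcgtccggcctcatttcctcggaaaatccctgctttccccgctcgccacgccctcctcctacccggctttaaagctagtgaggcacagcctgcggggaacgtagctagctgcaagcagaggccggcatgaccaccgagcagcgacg
In IFIH1, 4 matches were present. Each of the 3 upstream ones overlaps its neighbour on the minus strand of the printed sequence, between 164 and 144 bases before the start, and another lies 21 to 13 bases before it. The AIM2 match lies 189 to 181 bases before the start. Of the 2 IFI16 start sites in the table, 1 had a match, 74 to 66 bases before the start. A match of this kind describes letters and not a site in use. Lack of a match to these exact letters, as in RIGI, does not show that a promoter has no interferon-stimulated response element.

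CGAS was the sensor gene with the largest difference in the knockdown comparison. Its levels were 8.11, 8.22 and 8.24 in shARID1B+4OHT cells, against 7.02, 7.18 and 7.54 in vector+4OHT cells and 7.50, 7.27 and 7.54 in vector-4OHT cells. All 3 shARID1B+4OHT arrays lay above all 6 vector arrays, with a gap of 0.57 to the highest of them, whereas the vector groups overlapped. Replicate 3 of the vector+4OHT group and replicate 3 of the vector-4OHT group held the identical deposited value, a repetition also present on 2 or more arrays in 8354 of the 18417 genes. CGAS rose 1.92-fold in shARID1B+4OHT cells relative to vector+4OHT cells (95% confidence interval 1.60 to 2.31, adjusted p = 0.000413), which was rank 75 by size of difference among the 1773 genes called higher. Against vector-4OHT cells it rose 1.68-fold (adjusted p = 0.000546). Between vector+4OHT and vector-4OHT cells the log2 difference was -0.19 (95% confidence interval -0.45 to 0.071, adjusted p = 0.273). Within vector+4OHT cells the SD of CGAS was 0.27, against 0.068 in shARID1B+4OHT cells and 0.14 in vector-4OHT cells. Vector+4OHT replicate 3 was the array with the highest CGAS of its group. Without it, CGAS was 0.34 lower on the log2 scale in vector+4OHT than in vector-4OHT cells (limma adjusted p = 0.0161). That difference passed in 1 of 17 alternative analyses, the one without this array, with adjusted p up to 0.646 over all 17. The rise in shARID1B+4OHT cells kept its call with any single array left out, with folds from 1.78 to 2.13, but by the methods' t-test on the 6 arrays the adjusted p was 0.0504.

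STING1, which encodes the receptor for cGAMP, passed the test in none of the 3 comparisons. It had 9.09, 8.98 and 9.07 in shARID1B+4OHT cells, 9.08, 9.32 and 9.16 in vector+4OHT cells and 9.0, 9.12 and 9.09 in vector-4OHT cells. The groups overlapped in every pairing, and the log2 difference between shARID1B+4OHT and vector+4OHT cells was -0.14 (95% confidence interval -0.29 to 0.012, adjusted p = 0.216). Its difference between vector+4OHT and vector-4OHT cells was 0.12 (adjusted p = 0.231), and that between shARID1B+4OHT and vector-4OHT cells was -0.02 (adjusted p = 0.859).

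IFI16, the nuclear and cytosolic DNA-binding protein that also acts with STING, was the only measured sensor called lower in shARID1B+4OHT cells in either comparison. It had 10.92, 10.89 and 10.89 in shARID1B+4OHT cells, 10.95, 11.04 and 11.02 in vector+4OHT cells and 11.13, 11.10 and 11.08 in vector-4OHT cells. The 3 groups did not overlap and stood in this order, lowest in shARID1B+4OHT cells, over a total distance of 0.20 on the log2 scale. IFI16 fell to 0.868-fold in shARID1B+4OHT cells relative to vector-4OHT cells (adjusted p = 0.00616). The neighbouring steps did not pass the test, at -0.10 between shARID1B+4OHT and vector+4OHT cells (adjusted p = 0.193) and -0.10 between vector+4OHT and vector-4OHT cells (adjusted p = 0.123). The call against vector-4OHT cells was lost when each array's median was subtracted first, which gave -0.14 (adjusted p = 0.0912).

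AIM2 stayed far under the median of 6.75 on all 9 arrays. It had 3.90, 3.94 and 3.91 in shARID1B+4OHT cells, 3.85, 3.88 and 3.90 in vector+4OHT cells and 3.92, 3.90 and 3.90 in vector-4OHT cells, and 4 of the 9 arrays held an identical value. The log2 differences were 0.04 between shARID1B+4OHT and vector+4OHT cells (adjusted p = 0.582), 0.01 between shARID1B+4OHT and vector-4OHT cells (adjusted p = 0.911) and -0.03 between vector+4OHT and vector-4OHT cells (adjusted p = 0.651).

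**Figure D1:**
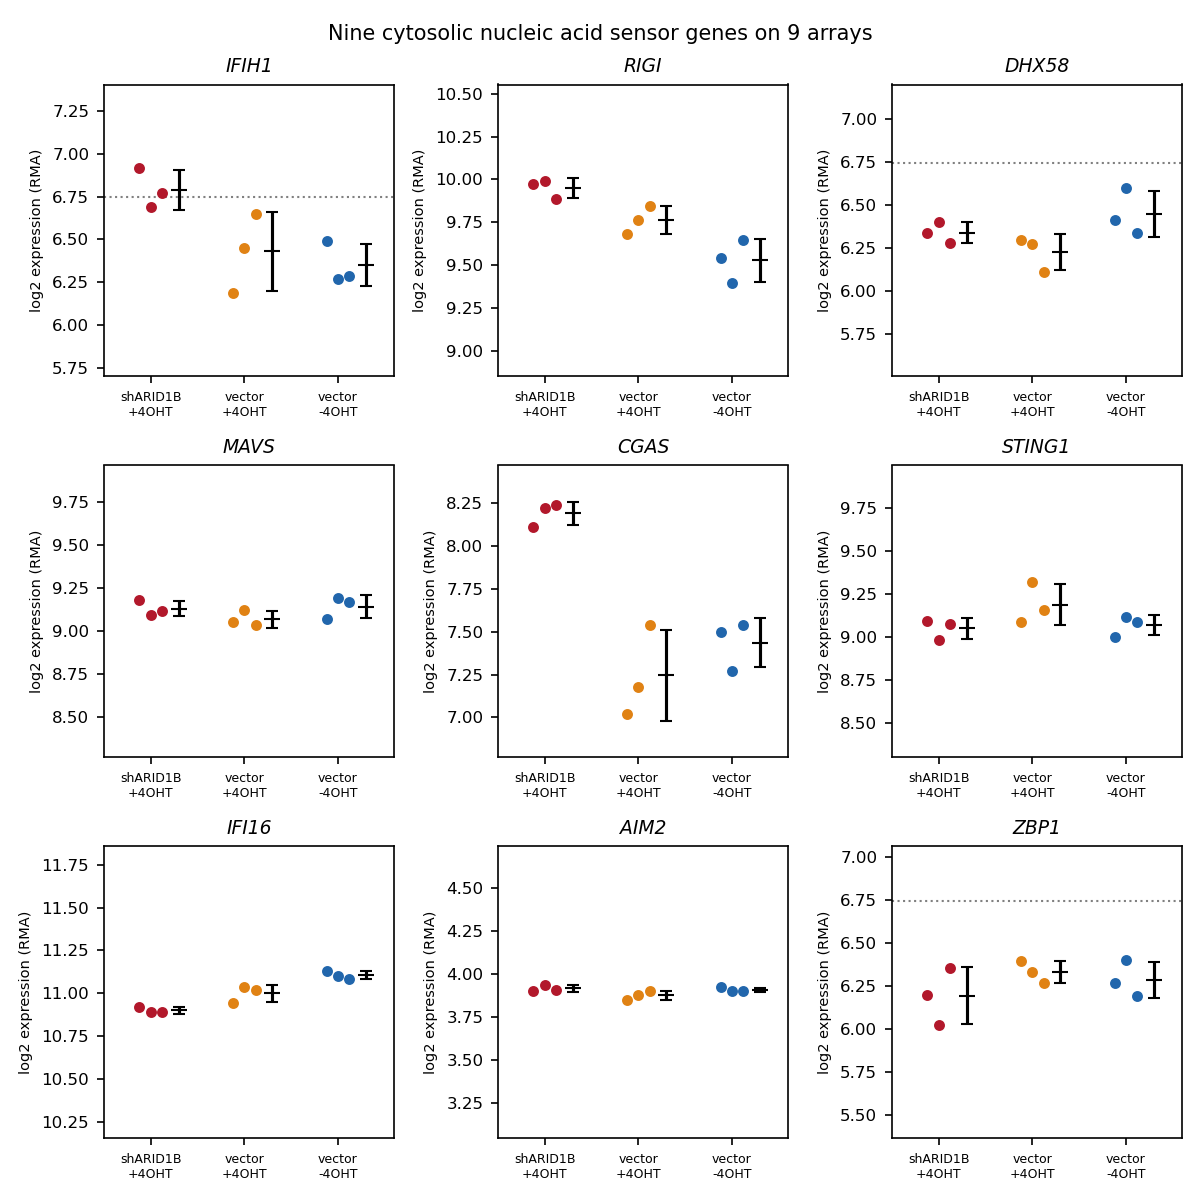
Log2 expression of the 9 measured sensor genes in shARID1B+4OHT (red), vector+4OHT (orange) and vector-4OHT cells (blue), 3 arrays each; dots are arrays in replicate order, black marks are group means with SD, the dotted line, where in range, is the median of all probe sets (6.75), and every panel spans the same height. CGAS in shARID1B+4OHT cells stands 0.57 above every vector array. STING1, MAVS, AIM2 and ZBP1 overlap in every pairing of groups, and CGAS, IFIH1 and DHX58 overlap in some pairings. How many of all genes overlap was not counted.

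Among the genes of RNA recognition, RIGI passed the test in 2 of the 3 comparisons. It had 9.97, 9.99 and 9.88 in shARID1B+4OHT cells, 9.68, 9.76 and 9.84 in vector+4OHT cells and 9.54, 9.40 and 9.65 in vector-4OHT cells. No 2 groups overlapped, although the gaps between neighbouring groups were 0.039 and 0.037. RIGI rose 1.34-fold in shARID1B+4OHT cells relative to vector-4OHT cells (adjusted p = 0.000875) and 1.18-fold in vector+4OHT cells relative to vector-4OHT cells (adjusted p = 0.0260). The step between shARID1B+4OHT and vector+4OHT cells, 0.19 on the log2 scale (95% confidence interval 0.030 to 0.34), did not pass the test (adjusted p = 0.110). The call between the vector groups was lost in 6 of 17 alternative analyses, 4 of which left out a vector array (vector-4OHT replicate 1 or 2, or vector+4OHT replicate 2 or 3), with adjusted p up to 0.159 over all 17.

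IFIH1 lay near the median of all probe sets. It had 6.92, 6.69 and 6.77 in shARID1B+4OHT cells, against 6.19, 6.45 and 6.65 in vector+4OHT cells and 6.49, 6.27 and 6.29 in vector-4OHT cells, so the group means of both vector groups were not shown to be above background. Its 3 shARID1B+4OHT arrays were higher than all 6 vector arrays, by 0.038 at the closest point. IFIH1 rose 1.36-fold in shARID1B+4OHT cells relative to vector-4OHT cells (adjusted p = 0.0106). Relative to vector+4OHT cells the log2 difference was 0.36 (95% confidence interval 0.12 to 0.61) and lay at the threshold (adjusted p = 0.0510). Without vector+4OHT replicate 3, where IFIH1 was highest in its group, this difference was 0.47 and passed (limma adjusted p = 0.0142). The difference passed in 3 of 16 alternative analyses, with adjusted p up to 0.263 over all 16. Between vector+4OHT and vector-4OHT cells it was 0.08 (adjusted p = 0.665).

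DHX58 stayed under 6.75 on all 9 arrays. It had 6.34, 6.40 and 6.28 in shARID1B+4OHT cells, 6.30, 6.28 and 6.11 in vector+4OHT cells and 6.41, 6.60 and 6.34 in vector-4OHT cells. Only the vector groups were separate, by 0.041, and DHX58 fell to 0.857-fold in vector+4OHT cells relative to vector-4OHT cells (adjusted p = 0.0472). That call held in 5 of 16 alternatives and was lost with the omission of any array other than vector-4OHT replicate 3 or vector+4OHT replicate 1. Between shARID1B+4OHT and vector+4OHT cells the log2 difference was 0.11 (adjusted p = 0.379), and between shARID1B+4OHT and vector-4OHT cells it was -0.11 (adjusted p = 0.322).

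MAVS, the adaptor shared by RIG-I and MDA5, passed the test in no comparison. It had 9.18, 9.09 and 9.11 in shARID1B+4OHT cells, 9.05, 9.12 and 9.03 in vector+4OHT cells and 9.07, 9.19 and 9.17 in vector-4OHT cells, with overlap between all groups. Its log2 difference was 0.06 between shARID1B+4OHT and vector+4OHT cells (95% confidence interval -0.058 to 0.18, adjusted p = 0.502), -0.01 between shARID1B+4OHT and vector-4OHT cells (adjusted p = 0.884) and -0.07 between vector+4OHT and vector-4OHT cells (adjusted p = 0.365).

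ZBP1 lay below the median on every array, with 6.20, 6.03 and 6.36 in shARID1B+4OHT cells, 6.39, 6.33 and 6.27 in vector+4OHT cells and 6.27, 6.40 and 6.19 in vector-4OHT cells. Its groups overlapped, and its log2 difference was -0.14 between shARID1B+4OHT and vector+4OHT cells (adjusted p = 0.333), -0.09 between shARID1B+4OHT and vector-4OHT cells (adjusted p = 0.461) and 0.04 between vector+4OHT and vector-4OHT cells (adjusted p = 0.769). RIPK3, its partner kinase, also lay below the median, with means of 6.05, 6.04 and 6.06 in shARID1B+4OHT, vector+4OHT and vector-4OHT cells. MLKL, which carries out necroptosis, rose 1.89-fold in vector+4OHT cells relative to vector-4OHT cells (adjusted p = 5.64e-07).

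**Figure D2:**
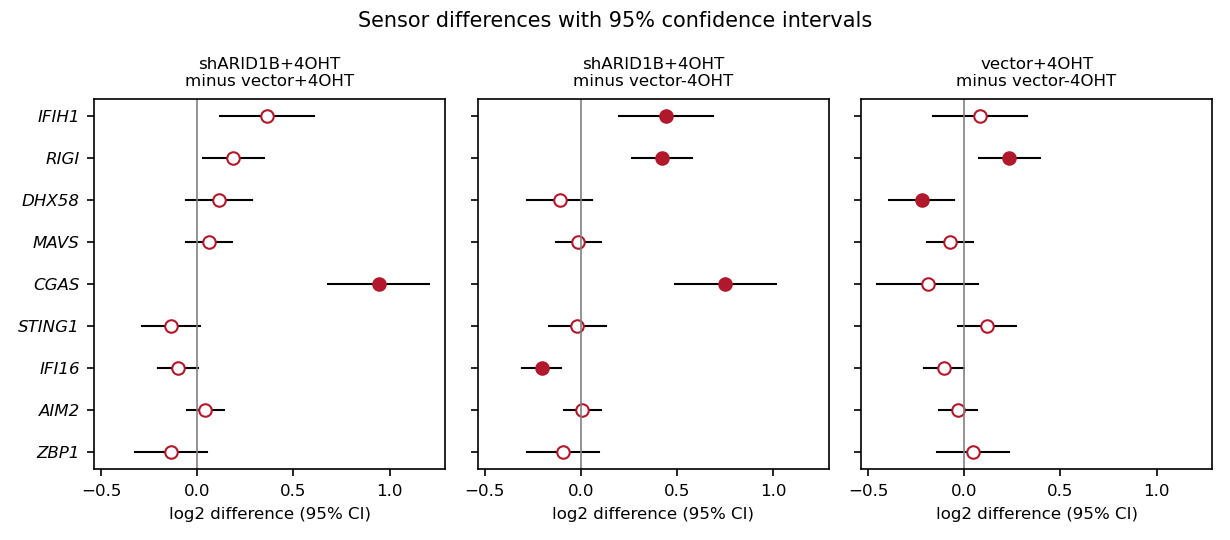
Log2 differences of the 9 sensor genes for shARID1B+4OHT minus vector+4OHT, shARID1B+4OHT minus vector-4OHT and vector+4OHT minus vector-4OHT cells; points are limma estimates, lines 95% confidence intervals, and filled points passed the adjusted threshold over all genes. CGAS alone is filled in the left panel (0.94), 4 genes in the middle panel and RIGI and DHX58 in the right panel.

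Counted over the set, 1 of 9 sensors was called higher in shARID1B+4OHT cells relative to vector+4OHT cells (limma), where 9.63% of all genes were. In the same comparison 0 sensors were called lower, where 6.09% of all genes were. An unadjusted limma p under 0.05 was reached by 3 of 9 sensors and by 5144 of 18417 genes. The methods' t-test gave 3 sensors and 4342 genes unadjusted, and 0 sensors and 1446 genes after adjustment. The median log2 difference was 0.06 over the sensors and -0.02 over all genes. Relative to vector-4OHT cells, 3 sensors were called higher in shARID1B+4OHT cells, with a background of 15.6%, and 1 lower, with a background of 15.9%. In vector+4OHT relative to vector-4OHT cells, 1 sensor was called higher, with a background of 14.9%, and 1 lower, with a background of 17.6%. The comparisons share their groups and are not independent of each other. CGAS, RIGI, IFIH1, IFI16 and DHX58 each passed in at least 1 comparison, and STING1, MAVS, AIM2 and ZBP1 passed in none of the 3. The share of all genes that passed in at least 1 comparison was not counted, so this split only describes the members. DHX58 passed at levels not shown to be above background. IFIH1 passed against vector-4OHT cells, whose mean was not shown to be above background.

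The genes whose values over the 9 arrays came closest to those of CGAS were DDX60, PRKAR2B and DNAH5, by the root mean square difference of centred log2 values among 11666 genes. This distance was 0.110 for DDX60, 0.133 for PRKAR2B and 0.134 for DNAH5, where the SD of CGAS itself over the 9 arrays was 0.459. DDX60, an interferon-induced helicase that acts with RIG-I, averaged 7.33 in shARID1B+4OHT cells, 6.47 in vector+4OHT cells and 6.73 in vector-4OHT cells. PRKAR2B, a regulatory subunit of protein kinase A, averaged 9.29, 8.37 and 8.70 in the same order of groups. DNAH5, a dynein heavy chain of motile cilia, averaged 8.24, 7.56 and 7.73 in that order. These genes were picked for their likeness to CGAS, so that their order of group means is a description, and both vector means of DDX60 were not shown to be above background.

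Downstream of the sensors, 22 of 24 listed kinases, adaptors and transcription factors were measured. In shARID1B+4OHT relative to vector+4OHT cells 4 were called higher and 2 lower, with a median of 0.04, beside 9.63% and 6.09% of all genes. TBK1, the kinase on which both arms converge, rose 1.29-fold (adjusted p = 0.0153), with means of 9.74 ± 0.11 in shARID1B+4OHT cells and 9.38 ± 0.13 in vector+4OHT cells (SD, n = 3 each). IRF3, its substrate, rose 1.17-fold (adjusted p = 0.00576), and IKBKE, the related kinase, fell to 0.852-fold (adjusted p = 0.0316). CASP1, the inflammasome protease, averaged 7.83 ± 0.071 in shARID1B+4OHT cells, 6.66 ± 0.10 in vector+4OHT cells and 7.66 ± 0.15 in vector-4OHT cells (SD, n = 3 each), the vector+4OHT mean not shown to be above background. It rose 2.25-fold in shARID1B+4OHT relative to vector+4OHT cells (adjusted p = 9.66e-06) and fell to 0.502-fold in vector+4OHT relative to vector-4OHT cells (adjusted p = 3.90e-06). PYCARD, which encodes ASC, rose 1.16-fold with the hairpin (adjusted p = 0.0230). In vector+4OHT relative to vector-4OHT cells 8 members were called higher and 1 lower, beside 14.9% and 17.6% of all genes, among them TRAF3 and NFKB1, each 0.58 higher on the log2 scale (adjusted p = 4.80e-05 and 0.000146).

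Of 26 measured regulators of the sensors (28 listed), 3 were called higher and 2 lower in shARID1B+4OHT relative to vector+4OHT cells, with a median of -0.04, beside 9.63% and 6.09% of all genes. ENPP1, the ectoenzyme that hydrolyses cGAMP outside cells, averaged 9.89 ± 0.036 in shARID1B+4OHT cells, 8.997 ± 0.14 in vector+4OHT cells and 9.95 ± 0.12 in vector-4OHT cells (SD, n = 3 each). It rose 1.86-fold in shARID1B+4OHT relative to vector+4OHT cells (adjusted p = 4.85e-05) and fell to 0.515-fold in vector+4OHT relative to vector-4OHT cells (adjusted p = 4.73e-06). TRIM14, which stabilises cGAS, rose 1.38-fold with the hairpin (adjusted p = 0.00518) and was 0.578-fold in vector+4OHT relative to vector-4OHT cells. TOLLIP, which stabilises STING, fell to 0.831-fold with the hairpin (adjusted p = 0.00602). LRRC8C, a subunit of volume-regulated channels that pass cGAMP, rose 1.79-fold in vector+4OHT relative to vector-4OHT cells (adjusted p = 5.20e-07). In that comparison 8 regulators were called higher and 5 lower, beside 14.9% and 17.6% of all genes.

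Among 24 measured genes for other nucleic acid sensors (26 listed), 8 were called higher and 0 lower in shARID1B+4OHT relative to vector+4OHT cells (limma), with a median of 0.05, and 16 did not pass, beside 9.63% called higher and 6.09% lower of all genes. The 8 included OAS1, OAS2 and OAS3, which make the second messenger that activates RNase L, and IFIT1 and IFIT5, which bind foreign RNA ends. OAS2 rose 2.05-fold (adjusted p = 0.000401), although its mean in vector+4OHT cells was not shown to be above background, and IFIT1 rose 2.13-fold (adjusted p = 0.00138). TLR3, the endosomal receptor for double-stranded RNA, averaged 7.45 ± 0.11 in shARID1B+4OHT cells, 6.35 ± 0.14 in vector+4OHT cells and 8.79 ± 0.18 in vector-4OHT cells (SD, n = 3 each), with the vector+4OHT mean again not shown to be above background. It rose 2.13-fold with the hairpin (adjusted p = 5.43e-05) and stayed below vector-4OHT cells, at 0.394-fold (adjusted p = 1.72e-06). In vector+4OHT relative to vector-4OHT cells 5 of these genes were called higher and 5 lower, beside 14.9% and 17.6% of all genes.

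**Figure D3:**
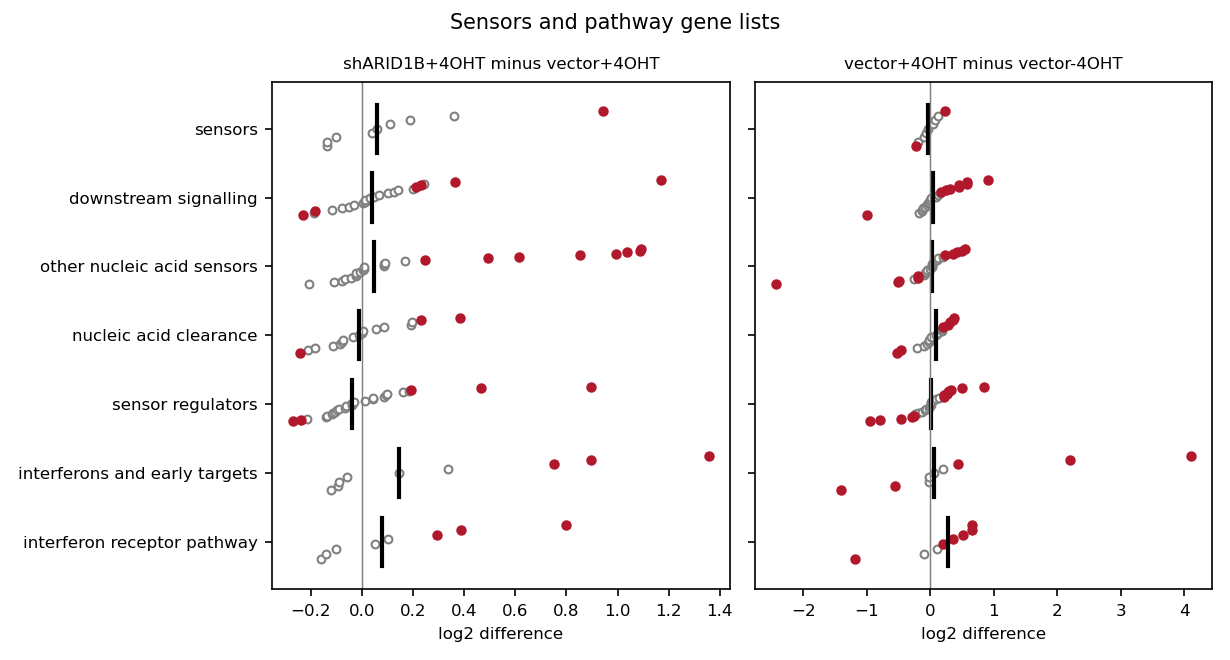
Log2 differences of the sensors and of 6 lists of related genes for shARID1B+4OHT minus vector+4OHT cells (left) and vector+4OHT minus vector-4OHT cells (right), on separate axes; each dot is a gene, filled where it passed the adjusted threshold, and black bars are list medians. In the left panel 8 of 24 other nucleic acid sensors are filled, all to the right, while their median is 0.05.

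TREX1 itself gave no value, and 17 other genes that clear or edit nucleic acids were measured. In shARID1B+4OHT relative to vector+4OHT cells 2 were called higher and 1 lower, beside 9.63% and 6.09% of all genes. In vector+4OHT relative to vector-4OHT cells 5 were called higher and 2 lower, beside 14.9% and 17.6% of all genes. The 3 subunits of RNase H2, which removes RNA from RNA-DNA hybrids, did not all move one way. RNASEH2B rose 1.31-fold with the hairpin (adjusted p = 0.00297), RNASEH2C fell to 0.845-fold (adjusted p = 0.0303), and RNASEH2A had a log2 difference of 0.09 (adjusted p = 0.310). SAMHD1, which depletes deoxynucleotides, rose 1.18-fold with the hairpin (adjusted p = 0.0409).

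Of 9 measured interferon genes and early targets, 3 were called higher and 0 lower in shARID1B+4OHT relative to vector+4OHT cells (limma), beside 9.63% and 6.09% of all genes. IFNB1, the interferon that the sensor pathways induce first, averaged 3.67, 3.76 and 3.71 in shARID1B+4OHT, vector+4OHT and vector-4OHT cells, below the median in each (adjusted p = 0.604 between shARID1B+4OHT and vector+4OHT cells). IFNE, another interferon gene of the list, averaged 6.56, 6.62 and 4.41 in the same order of groups, also below the median in each. It was 4.61-fold higher in vector+4OHT than in vector-4OHT cells (limma adjusted p = 3.72e-06). CXCL10, an interferon- and NF-κB-induced chemokine, averaged 12.08 ± 0.077 in shARID1B+4OHT cells, 10.72 ± 0.070 in vector+4OHT cells and 6.61 ± 0.093 in vector-4OHT cells (SD, n = 3 each), the last not shown to be above background. It rose 2.56-fold with the hairpin (adjusted p = 2.00e-06). IFIT3 rose 1.86-fold with the hairpin (adjusted p = 0.000722) and fell to 0.679-fold in vector+4OHT relative to vector-4OHT cells (adjusted p = 0.00442). ISG15, an early target as well, rose 1.36-fold in vector+4OHT relative to vector-4OHT cells (adjusted p = 0.000327) but had a log2 difference of 0.15 with the hairpin (adjusted p = 0.172). Of 8 measured genes of the interferon receptor pathway, 3 were called higher and 0 lower with the hairpin (limma), beside the same shares of all genes. USP18, a brake on the receptor, rose 1.74-fold (adjusted p = 0.000321), IRF9 1.31-fold (adjusted p = 0.00525) and IFNAR2 1.23-fold (adjusted p = 0.0258). In vector+4OHT relative to vector-4OHT cells 5 of the 8 were called higher and 1 lower, beside 14.9% and 17.6% of all genes. There USP18 and IFNAR2 rose 1.58-fold each, and SOCS1 fell to 0.441-fold. Of the 9 interferon genes and early targets, 3 were called higher and 2 lower in that comparison.

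**Figure D4:**
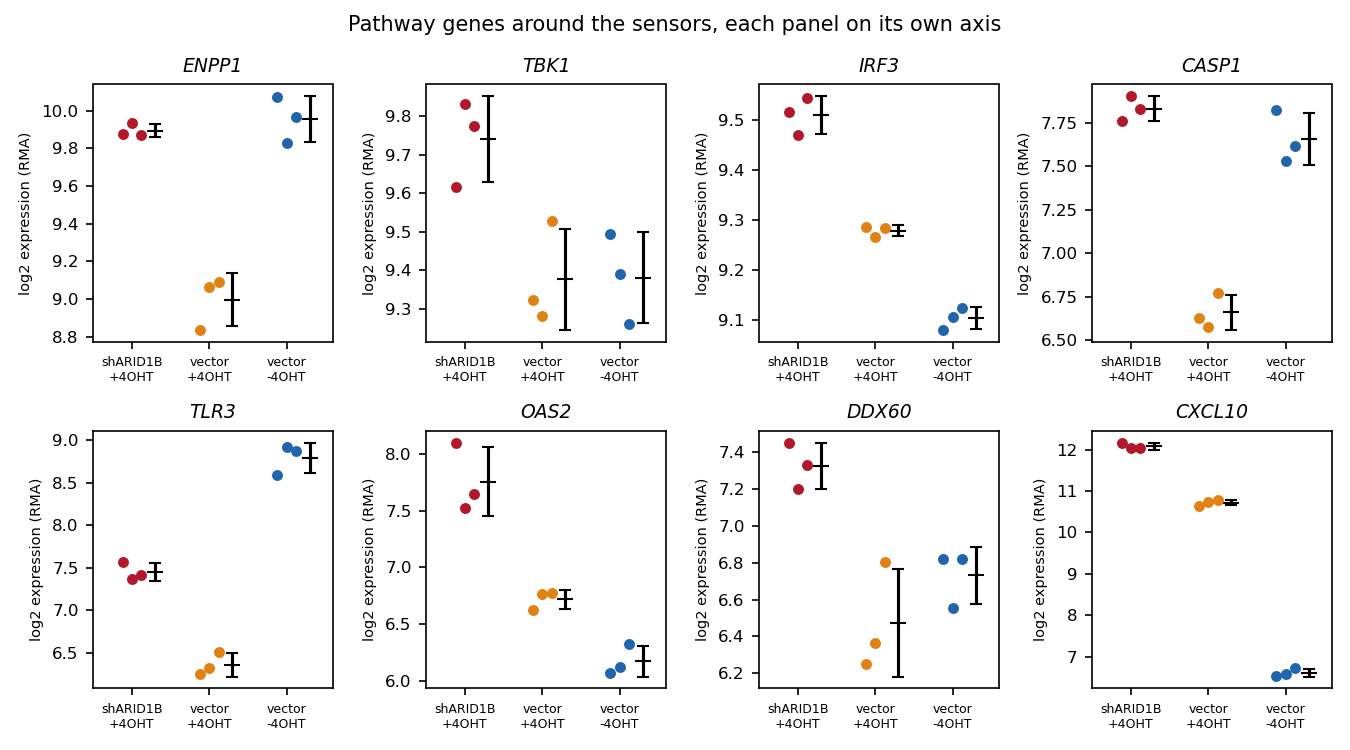
Log2 expression of 8 genes around the sensors in shARID1B+4OHT (red), vector+4OHT (orange) and vector-4OHT cells (blue), 3 arrays each, with group means and SD; each panel has its own axis. ENPP1, CASP1, TLR3 and DDX60 have their lowest mean in vector+4OHT cells, whereas IRF3, OAS2 and CXCL10 are ordered vector-4OHT, vector+4OHT, shARID1B+4OHT from low to high.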

How the data were processed

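Total RNA of 9 samples was labelled for Affymetrix whole-transcript arrays, per the labels, although the labels' extraction text names an Illumina stranded library kit. The authors deposited log2 values of 33297 probe sets, and the submitters' processing notes name RMA, oligo and limma; the genome build is not given in the sources used here. The deposited log2 values had no missing entries and ranged from 2.29 to 14.22, with array medians from 6.70 to 6.79. They were used as deposited. Gene symbols came from the platform annotation, in which 19460 probe sets had 1 symbol, 1754 several and 12083 none; 19429 of the first matched RefSeq (GRCh38.p14). The probe set with the highest mean was kept for 769 genes with several. A log2 model with the 3 groups was fitted to 18417 genes on all 9 arrays with limma 3.58.1 (R 4.3.3), with empirical Bayes moderation (6 residual degrees of freedom, median residual SD 0.0843) and Benjamini-Hochberg adjustment over all genes; an adjusted p under 0.05 was called. The number of arrays limits the precision, and an exact permutation test of 3 against 3 arrays cannot go below p = 0.1. The fitting code was tested on simulated data.

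The sensors and gene lists were chosen with earlier results of these data known. All sensors are described; from each list up to 4 members with the smallest p in each comparison could be named. RIPK3 and IFNB1 were named after their values were seen, for their roles. IKBKE was also named outside the rule of smallest p. Alternatives were a replicate block, only the 6 arrays compared, a filter on dim genes, other probe set rules, array medians subtracted, trended robust moderation, the methods' two-tailed t-test, and each array left out. TREX1, whose probe set is shared with ATRIP, was left out.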

Additional observations from a re-analysis of the deposited data

How the results depend on the processing

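The ARID1B fall and the CGAS and RIGI rises in shARID1B+4OHT relative to vector-4OHT cells passed in all 17 alternatives, IFIH1 in 16 of 16, and CGAS in shARID1B+4OHT relative to vector+4OHT cells in 16 of 17. Sensors called higher in vector+4OHT relative to vector-4OHT cells, 1 in the main analysis, were 0 with only the 6 arrays compared or with the methods' t-test, and 0 to 1 with an array left out. Those called lower, 1 in the main analysis, were 0 with only the 6 arrays, with dim genes left out (DHX58 was then not tested), with array medians subtracted, with trended robust moderation or with the t-test, and 0 to 1 with an array left out. Sensors called higher in shARID1B+4OHT relative to vector+4OHT cells were 2 with array medians subtracted or trended robust moderation, IFIH1 being the added gene (adjusted p = 0.0472 and 0.0426), 0 with the t-test, and 1 to 2 with an array left out. Sensors called lower in shARID1B+4OHT relative to vector-4OHT cells were 0, against 1, with array medians subtracted.

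Signs turned only for differences near 0 that were not called. With array medians subtracted, AIM2 between the vector groups was 0.0020, and MAVS and STING1 in shARID1B+4OHT relative to vector-4OHT cells were 0.048 and 0.042. With an array left out, IFIH1 between the vector groups ranged from -0.029 to 0.20 and ZBP1 from -0.0036 to 0.10, while in shARID1B+4OHT relative to vector-4OHT cells MAVS ranged from -0.050 to 0.012, STING1 from -0.053 to 0.016 and AIM2 from -0.0033 to 0.016. The cause was not tested.

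Replicate numbers did not pair the arrays: of 9 same-number pairs the correlations of deviations ran from -0.264 to 0.322, and 0 arrays correlated best with their own number. With the replicate block, 1 sensor was called higher and 0 lower in shARID1B+4OHT relative to vector+4OHT cells, CGAS at a log2 difference of 0.94 (adjusted p = 0.000382), and the counts of the other comparisons were 1 higher and 1 lower between the vector groups and 3 higher and 1 lower relative to vector-4OHT cells. The ARID1B difference with the block was -0.73 (adjusted p = 0.000771). Over all genes the t-test called 1737 higher and 2000 lower between the vector groups, against 2747 and 3249, and 826 higher and 620 lower in shARID1B+4OHT relative to vector+4OHT cells, against 1773 and 1122. Leaving out shARID1B+4OHT replicate 2 gave 1108 higher and 693 lower in that comparison, and leaving out vector+4OHT replicate 2 or shARID1B+4OHT replicate 3 gave 746 or 698 lower. Genes below the median of all probe sets (AIM2, ZBP1 and DHX58 in all groups, IFIH1 and DDX60 in the vector groups, and CASP1 and TLR3 in vector+4OHT cells, among others) are limited by signal over background.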

Other observations

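Among markers of other cell types, KRT19, a keratin of simple epithelia, averaged 8.46 ± 0.026 in shARID1B+4OHT cells, 7.60 ± 0.25 in vector+4OHT cells and 8.70 ± 0.093 in vector-4OHT cells (SD, n = 3 each), lowest in vector+4OHT cells as CASP1, ENPP1 and TLR3 were. It rose 1.82-fold in shARID1B+4OHT relative to vector+4OHT cells (adjusted p = 0.000321), while EPCAM, which defines epithelial cells, averaged 5.83, 5.80 and 5.93 in shARID1B+4OHT, vector+4OHT and vector-4OHT cells, below the median in each. CLDN4 also rose with the hairpin (1.30-fold, limma adjusted p = 0.00128), from a vector+4OHT mean not shown to be above background. KRT8 and KRT18 lay above the median in every group and were not called with the hairpin. Over 8 epithelial markers, 2 were called higher and 0 lower, beside 9.63% and 6.09% of all genes. Of 10 endothelial markers, TEK was called higher (1.36-fold, limma adjusted p = 0.000526) and PECAM1 lower (0.825-fold, limma adjusted p = 0.0468), beside 9.63% and 6.09% of all genes. PECAM1 averaged 6.00 in shARID1B+4OHT and 6.28 in vector+4OHT cells, neither shown to be above background. Of the 10 fibroblast markers, 2 were called higher and 2 lower in shARID1B+4OHT relative to vector+4OHT cells (limma), beside 9.63% and 6.09% of all genes. In vector+4OHT relative to vector-4OHT cells 0 were called higher and 8 lower, beside 14.9% and 17.6% of all genes. FAP fell to 0.752-fold (adjusted p = 0.0124) and COL1A1 to 0.863-fold (adjusted p = 0.0469) with the hairpin. DCN, the fibroblast proteoglycan decorin, rose 1.57-fold with the hairpin (adjusted p = 0.000104) and fell to 0.329-fold in vector+4OHT relative to vector-4OHT cells (adjusted p = 2.24e-08). The part of these genes in the sensor values was not tested.

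On vector+4OHT replicate 3, CGAS, IFIH1 and RIGI were each at the highest value of their group, at 7.54, 6.65 and 9.84, as was AIM2 at 3.90. DHX58, MAVS and ZBP1 were at the lowest value of their group on that array, at 6.11, 9.03 and 6.27. STING1, IFI16 and ARID1B, the last at 8.77, lay in the middle of their group there.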
